A study of Mus musculus with 6 samples.

Results

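Kinesins are motor proteins that use ATP to walk along microtubules or to take microtubule ends apart. One branch of the family builds and pulls the mitotic spindle and then organises the midzone and midbody through which a dividing cell is cut, and another branch carries vesicles, organelles and protein complexes. In the heart of a newborn mouse many heart muscle cells still divide, and some of them stop before the cut and keep a pair of nuclei. The kinesin genes were taken from the deposited expression table by their symbols, Kif followed by a number or Kifc followed by a digit, which gave 37 of 14004 listed genes. Of these, 10 were set down as mitotic (Kif4, Kif11, Kif14, Kif15, Kif18a, Kif20a, Kif20b, Kif22, Kif23 and Kif2c), 14 as transport kinesins, 3 as further kinesins of dividing cells (Kif18b, Kifc1 and Kif24) and 10 as others.

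The libraries came from heart ventricle of C57BL6 mice on postnatal day 1 and were made by stranded sequencing of polyadenylated RNA. There were 3 libraries of WT mice and 3 of Rbpms KO mice, in which the gene for the RNA-binding protein Rbpms is knocked out, and the series places Rbpms in cytokinesis and binucleation of heart muscle cells. The labels call the libraries biological replicates and do not say how the knockout allele was made or how many animals went into a library, so a p-value here reflects spread among libraries, which may be technical. Levels are RPKM, reads per kilobase of gene and per 1000000 reads, and the depth per library is unknown.

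Rbpms itself measured 33.1, 35.7 and 38.1 RPKM in WT and 0.594, 0.276 and 0.240 RPKM in Rbpms KO, so each library fitted its label. A gene was tested if it reached 0.5 RPKM in at least 3 libraries, and it was called at a limma adjusted p below 0.05 over all 12911 genes tested. By that rule 6.37% of tested genes were called, 2.38% higher and 3.99% lower in Rbpms KO, and 29.8% had groups that did not overlap. Of all pairs of libraries, WT replicates 1 and 2 were the most alike (SD of log2 ratios 0.132, other pairs 0.244 to 0.496). Counted as 1 sample, they left 213 called genes in place of 822. In bulk tissue, fewer cells of a type and less RNA per cell cannot be told apart.

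The promoters of the mitotic kinesins are shown first, because these genes are commonly switched on together before division. A cell cycle homology region (TTTGAA or TTCGAA, read on both strands) and the CCAAT box (CCAAT, both strands) are elements known from promoters of genes that peak in G2 and mitosis. RefSeq promoter windows of 300 bases, from 250 before to 50 after the start on GRCm38.p6, were matched for 29 of the 37 kinesins. The first element was present in 8 of 9 windows of mitotic kinesins, in 3 of 3 of the further division kinesins and in 1 of 11 windows of 9 transport kinesins and in 2 of 10 windows of 8 other kinesins, while 19.2% of all 32851 windows held it. A CCAAT box was present in 5 of 9 mitotic, 3 of 3 further division, 4 of 11 transport and 3 of 10 other kinesin windows. Of all windows 37.4% held it. The elements occurred together in 5 of 9 mitotic, 3 of 3 further division, 0 of 11 transport and 2 of 10 other kinesin windows. Of all windows 7.52% held both. These counts describe letters in a window and were not tested. Windows from 110 bases before to 30 after the start follow, 5′ to 3′ on the strand of the gene. They are those of 5 mitotic kinesins and of Kif1c, an abundant transport kinesin with neither element. Kif4, Kif2c and Kif23 were printed because their groups did not overlap. The groups of Kif20a did not overlap either, but it had no matched window and is absent from these counts. Kif11 and Kif22 were printed as the most abundant other mitotic kinesins with both elements. The capitals mark both elements, and ATTGG and TTCAAA are CCAAT and TTTGAA read on the opposite strand.
Kif11 (chr19:37376272-37376411, plus strand): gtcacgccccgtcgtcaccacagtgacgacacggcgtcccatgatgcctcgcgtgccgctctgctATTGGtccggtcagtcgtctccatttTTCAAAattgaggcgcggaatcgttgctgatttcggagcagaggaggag
Kif22 (chr7:127042391-127042530, minus strand): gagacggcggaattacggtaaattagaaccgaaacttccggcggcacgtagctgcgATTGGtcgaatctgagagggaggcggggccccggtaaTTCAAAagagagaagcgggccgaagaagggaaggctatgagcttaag
Kif23 (chr9:61946770-61946909, minus strand): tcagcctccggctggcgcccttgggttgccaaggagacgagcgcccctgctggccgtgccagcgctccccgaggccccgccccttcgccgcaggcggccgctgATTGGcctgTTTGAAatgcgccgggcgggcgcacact
Kif4 (chrX:100625955-100626094, plus strand): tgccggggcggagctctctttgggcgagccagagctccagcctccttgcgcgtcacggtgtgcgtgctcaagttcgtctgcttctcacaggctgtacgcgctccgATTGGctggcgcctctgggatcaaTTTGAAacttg
Kif2c (chr4:117178743-117178882, minus strand): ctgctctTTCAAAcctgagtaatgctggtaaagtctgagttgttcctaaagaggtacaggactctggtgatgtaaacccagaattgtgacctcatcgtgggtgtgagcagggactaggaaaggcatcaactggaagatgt
Kif1c (chr11:70700438-70700577, plus strand): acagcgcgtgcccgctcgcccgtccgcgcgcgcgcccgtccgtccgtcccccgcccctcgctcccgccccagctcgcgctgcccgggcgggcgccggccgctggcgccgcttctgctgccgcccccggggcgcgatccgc
In the printed windows of Kif11, Kif22, Kif23 and Kif4 the inverted CCAAT box lay upstream of the other element. The reverse held for Kif14, not printed, whose CCAAT box at -92, not inverted, lay downstream of the other element at -228. In the window of Kif2c only the cell cycle homology region was found. That window lies inside the Kif2c gene, which spans 117159639 to 117182639, so it does not show the promoter at the outer start. The same limit holds for the windows of Kif14 and Kif27 and for the Kif1a window with the cell cycle homology region. The Kif4 window, from 100625815, also lies inside its gene, but close to the gene start at 100625737. All of these windows are part of the counts above.

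Transport kinesins were the most abundant members of the family in the ventricle, with the mitotic motors reaching into the same range. Kif5b, the heavy chain of conventional kinesin found in most tissues, had the highest mean level at 59.8 RPKM. Kif1c, a carrier of vesicles, followed at 35.8 RPKM, then Kif11, the motor that pushes spindle poles apart, at 25.5 RPKM, Kif13a at 23.0 RPKM and Kif1b at 17.7 RPKM. Mitotic kinesins spanned 1.32 RPKM for Kif18a to 25.5 RPKM for Kif11. Kif5a, a neuronal heavy chain, and Kif19a, Kif27, Kif9, Kif6, Kifc2 and Kif21b lay below the filter, and these 7 members were not tested. All 37 kinesins together summed to 280, 285 and 296 RPKM in WT and to 247, 278 and 270 RPKM in Rbpms KO, with the groups apart by less than 2 RPKM. Transport kinesins alone summed to 167, 171 and 174 RPKM in WT and 153, 168 and 166 RPKM in Rbpms KO, and the groups overlapped.

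Among the 30 tested kinesins, Kif20a fell in Rbpms KO and 0 rose, where limma called 6.37% of all tested genes in either direction. This 1 fall of 30 was a share close to the 3.99% of all tested genes that fell. At an unadjusted p below 0.05 limma gave 7 kinesins, all lower in Rbpms KO, where 23.5% of all tested genes met that limit in either direction. The authors' deposited table held 6 kinesins lower and 0 higher at FDR below 0.05, beside 5.64% lower and 5.45% higher among its 14004 genes. Fitted log2 changes were below 0 for 23 of 30 kinesins and for 56.0% of all tested genes. In 10 of the 30 tested kinesins the groups did not overlap, all 10 with Rbpms KO below WT, as in 18.2% of all tested genes. The groups of 4 of the 7 kinesins below the filter, Kif5a, Kif9, Kif19a and Kif27, were apart in the same direction. The share of all genes below the filter with groups apart was not counted, so this count has no background. The median log2 change was -0.12 over the kinesins and -0.03 over all tested genes.

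**Figure D1:**
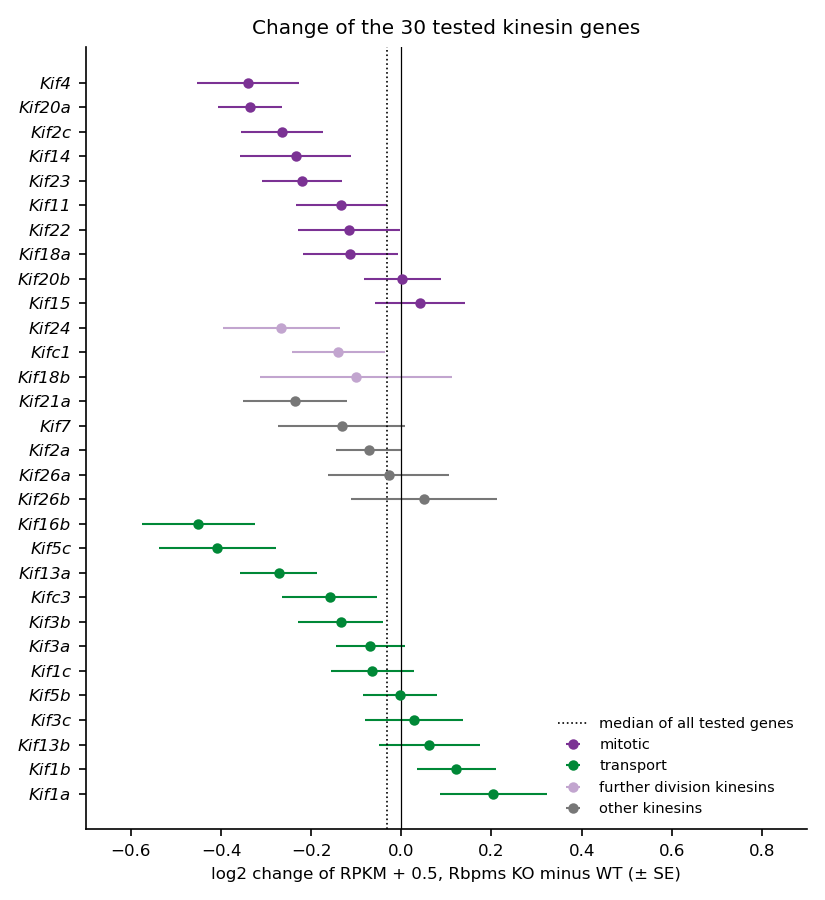
Log2 change of RPKM + 0.5, Rbpms KO minus WT, for the 30 tested kinesin genes, with the limma standard error as bars, colours for the 4 groups and a dotted line at the median of all tested genes. Of the 10 mitotic kinesins 8 lie left of 0, Kif16b is the lowest point at -0.45 and Kif1a the highest at 0.20.

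Motors of the spindle midzone and midbody work in the last step of division. Kif20a brings the chromosomal passenger complex, which holds Aurora B kinase, from the chromosomes to the midzone. Kif20a (ENSMUSG00000003779, GRCm38 chromosome 18, 34624613 to 34633277) measured 14.6, 14.8 and 14.3 RPKM in WT and 11.3, 12.0 and 11.1 RPKM in Rbpms KO. All WT libraries lay above all Rbpms KO libraries, and the libraries within a group lay close together. The log2 change of Kif20a was -0.34 with an SE of 0.071 (limma adjusted p = 0.0329). Leaving out WT replicate 3 or Rbpms KO replicate 1 kept the call, and leaving out any of the other 4 libraries ended it, with adjusted p up to 0.179. It was also lost after rescaling by the median ratio (0.0594) and when WT replicates 1 and 2 counted as 1 sample (0.147). The authors' deposited table gave Kif20a a log2 change of -0.31 and an FDR of 0.0544.

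Kif23 pairs with Racgap1 in centralspindlin, the complex that bundles midzone microtubules and recruits the activator of RhoA. Kif23 measured 7.77, 7.61 and 8.02 RPKM in WT and 6.10, 7.27 and 6.55 RPKM in Rbpms KO. Its groups did not overlap, but it did not pass the test (log2 change -0.22, SE 0.089, limma adjusted p = 0.184). Kif4, a motor that binds chromosomes and works with Prc1 on the midzone, measured 10.5, 9.96 and 11.4 RPKM in WT and 7.02, 9.30 and 8.68 RPKM in Rbpms KO. The groups were apart here too, with Rbpms KO replicate 1 the lowest library, and the log2 change of -0.34 (SE 0.11) had a limma adjusted p of 0.12.

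Kif14, which binds Prc1 and citron kinase at the midbody, measured 1.85, 1.94 and 2.19 RPKM in WT and 1.43, 1.91 and 1.54 RPKM in Rbpms KO. The groups of Kif14 overlapped through Rbpms KO replicate 2 (log2 change -0.23, limma adjusted p = 0.294). Kif20b, a relative of Kif20a found at the midbody, measured 5.75, 5.5 and 6.08 RPKM in WT and 5.85, 6.05 and 5.46 RPKM in Rbpms KO. The ranges of Kif20b nearly coincided, and its log2 change was close to 0, at 0.0025, with an SE of 0.086 (limma adjusted p = 0.990).

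Motors of the spindle itself showed small differences, none of them called. Kif2c, a depolymerase that corrects faulty attachments of chromosomes, measured 5.29, 5.02 and 5.48 RPKM in WT and 4.25, 4.62 and 4.03 RPKM in Rbpms KO. Its groups did not overlap (log2 change -0.26, SE 0.090, limma adjusted p = 0.125). Kif11 measured 26.4, 25.3 and 28.3 RPKM in WT and 20.98, 26.8 and 25.4 RPKM in Rbpms KO, so that only Rbpms KO replicate 1 lay below all WT libraries (log2 change -0.13, limma adjusted p = 0.475). Kif15, which can stand in for Kif11, measured 2.08, 2.30 and 2.17 RPKM in WT and 2.07, 2.37 and 2.37 RPKM in Rbpms KO. It had a log2 change of 0.04 and overlapping groups (limma adjusted p = 0.845).

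Kif22, a chromosome arm motor, measured 5.56, 5.93 and 6.76 RPKM in WT and 4.86, 6.04 and 5.86 RPKM in Rbpms KO. Kif18a, which limits the swing of chromosomes at metaphase, measured 1.33, 1.33 and 1.51 RPKM in WT and 1.17, 1.33 and 1.23 RPKM in Rbpms KO. Both overlapped between groups, with log2 changes of -0.12 for Kif22 and -0.11 for Kif18a and limma adjusted p of 0.585 and 0.564. Of the further division kinesins 0 of 3 were called by limma and 0 had an unadjusted p below 0.05. Kifc1, a minus-end motor that focuses spindle poles, Kif18b, a partner of Kif2c, and Kif24, a motor of centrioles, had log2 changes of -0.14, -0.10 and -0.27. Kif24 passed the filter through its WT libraries alone.

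**Figure D2:**
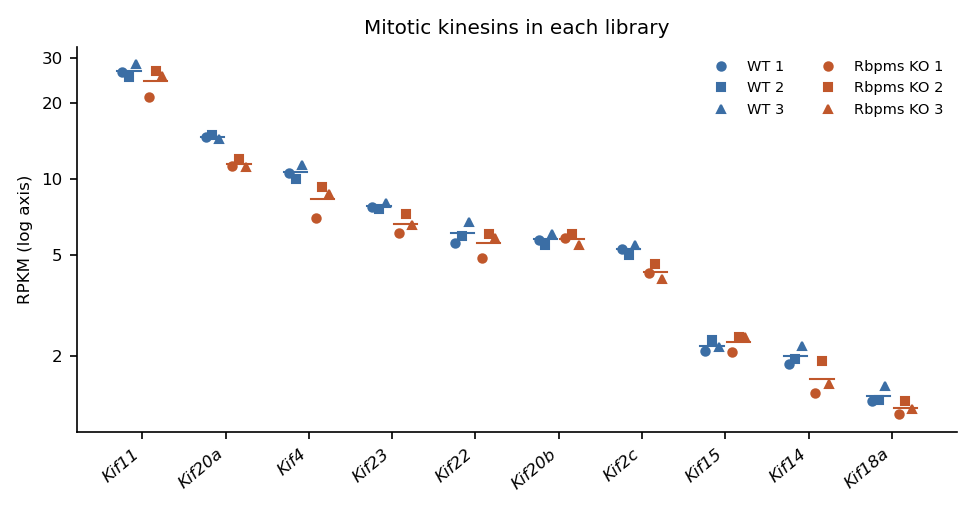
Level in RPKM on a log axis of the 10 mitotic kinesins in each of the 6 libraries, with marker shapes for replicates 1 to 3 and short lines at the group means. The groups are apart for Kif20a, Kif4, Kif23 and Kif2c and overlap for the other genes, and Rbpms KO replicate 1 is the lowest point for 7 of the 10 genes.

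The median log2 change of the mitotic kinesins was -0.18, beside -0.03 over all tested genes. Of the 10 genes 1 was called lower (3.99% of all tested genes), 4 had an unadjusted p below 0.05 (23.5%) and 4 had groups apart with Rbpms KO below WT (18.2%). The mean log2(RPKM + 0.5) over the 10 genes was 2.64, 2.64 and 2.74 in WT and 2.40, 2.61 and 2.50 in Rbpms KO. The groups of this mean did not overlap, and the gap between WT replicate 2 and Rbpms KO replicate 2 was far smaller than the spread within Rbpms KO. WT replicate 3 held the highest level for 8 of the 10 genes and Rbpms KO replicate 1 the lowest for 7. The median log2 change of the 10 genes was -0.13 if WT replicate 3 is dropped and -0.12 if Rbpms KO replicate 1 is. Markers of red blood cells stood out in 1 of these libraries. Their summed level over the 6 listed genes was 2408 RPKM in WT replicate 3 against 690 to 907 RPKM in the others, and its part in the mitotic levels was not tested. The summed cardiomyocyte markers were lowest in Rbpms KO replicate 1, at 9352 RPKM against 12078 to 15098 RPKM elsewhere, and their part was not tested either.

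The 12 tested transport kinesins had a median log2 change of -0.07, which became -0.035 without Rbpms KO replicate 1 and -0.028 after median ratio scaling. Limma called 0 of them (6.37% of all tested genes in either direction). An unadjusted p below 0.05 was found for 3 (23.5%), and 4 had groups apart with Rbpms KO below WT (18.2%). Their mean log2(RPKM + 0.5) was 2.83, 2.87 and 2.82 in WT and 2.72, 2.79 and 2.74 in Rbpms KO, and these groups did not overlap. Within each library, the mitotic mean minus the transport mean was -0.19, -0.23 and -0.08 in WT and -0.32, -0.18 and -0.24 in Rbpms KO on the log2 scale. The groups of this difference overlapped, with means of -0.17 ± 0.077 in WT and -0.24 ± 0.068 in Rbpms KO (SD, n = 3). With 3 libraries a group, these values do not show that the mitotic motors lay further below WT than the transport motors.

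**Figure D3:**
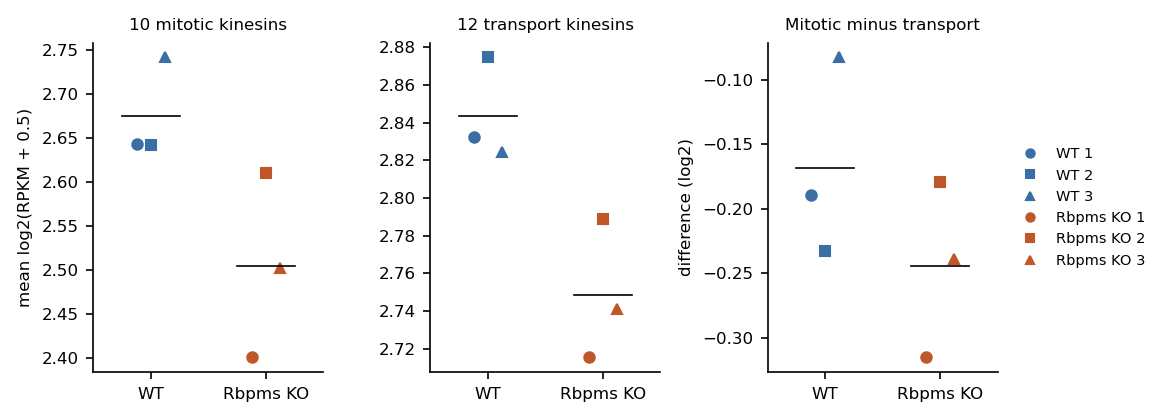
Mean log2(RPKM + 0.5) per library over the 10 mitotic kinesins (left), over the 12 tested transport kinesins (middle) and the difference of the 2 means (right), with lines at the group means and an axis range of its own for each panel. The groups are apart in the left and middle panels and overlap in the right panel, where Rbpms KO replicate 2 lies above WT replicates 1 and 2.

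Other genes of the spindle and midbody were counted in the same libraries. In a list of 24 partners, among them Cenpe, Prc1, Racgap1, Aurkb and Mki67, limma called 0 and 6 had an unadjusted p below 0.05, a share near the 23.5% of all tested genes. Fitted changes were below 0 for 22 of the 24, with a median of -0.14. Their mean log2(RPKM + 0.5) was 3.51, 3.52 and 3.63 in WT and 3.24, 3.54 and 3.39 in Rbpms KO, and here the groups overlapped through Rbpms KO replicate 2. The mitotic kinesins taken relative to these partners were at -0.88 ± 0.013 in WT and -0.89 ± 0.049 in Rbpms KO (SD, n = 3), a difference of -0.01 on the log2 scale.

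Of the 12 tested transport kinesins Kif16b had the lowest fitted change, followed by Kif5c and Kif13a. Kif16b, a motor that binds early endosomes through its lipid-binding PX domain, measured 8.41, 8.74 and 6.30 RPKM in WT and 5.53, 5.31 and 5.76 RPKM in Rbpms KO. The groups did not overlap, and WT replicate 3 lay nearer to the Rbpms KO libraries than to the other WT libraries. The log2 change of Kif16b was -0.45 with an SE of 0.13 and did not pass (limma adjusted p = 0.0756), except without WT replicate 3 (0.0158). The authors' deposited table gave Kif16b an FDR of 0.0296. Kif13a, which carries vesicles from the trans-Golgi network and recycling endosomes, measured 24.5, 26.6 and 24.4 RPKM in WT and 19.2, 22.8 and 20.4 RPKM in Rbpms KO. Its groups were apart without passing the test (log2 change -0.27, SE 0.085, limma adjusted p = 0.104).

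The groups of the most abundant carriers, Kif5b and Kif1c, overlapped. Kif5b measured 57.3, 58.2 and 64.0 RPKM in WT and 55.0, 60.2 and 64.1 RPKM in Rbpms KO, with a log2 change of -0.0029 and an SE of 0.083 (limma adjusted p = 0.988). Kif1c measured 35.4, 36.3 and 37.8 RPKM in WT and 30.6, 38.1 and 36.4 RPKM in Rbpms KO (log2 change -0.06, limma adjusted p = 0.718). For both genes Rbpms KO replicate 1 was the lowest library. Kif1b, which carries mitochondria and synaptic vesicle precursors in neurons, had a log2 change of 0.12 (limma adjusted p = 0.446). Kif3b, a subunit of the heterotrimeric kinesin of intraflagellar transport, measured 6.73, 6.74 and 6.40 RPKM in WT and 5.33, 6.38 and 6.31 RPKM in Rbpms KO. Its groups lay apart by under 0.1 RPKM (log2 change -0.13, limma adjusted p = 0.433), and its partner Kif3a had a log2 change of -0.07 with overlapping groups. Kif2a, a depolymerase outside the 3 other groups, measured 9.90, 9.49 and 9.61 RPKM in WT and 9.22, 9.40 and 8.90 RPKM in Rbpms KO, again just apart (log2 change -0.07, limma adjusted p = 0.597). Kifc3, a minus-end motor, Kif13b and Kif3c had log2 changes of -0.16, 0.06 and 0.03. Kif21a, Kif7, a part of hedgehog signalling in cilia, Kif26a and Kif26b had log2 changes of -0.24, -0.13, -0.03 and 0.05. With Kif2a they form the 5 tested other kinesins, of which limma called 0, with 0 at an unadjusted p below 0.05.

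The deepest relative losses in the family were in kinesins near the floor of detection. Kif19a, a depolymerase that limits the length of motile cilia in the mouse, measured 0.313, 0.327 and 0.388 RPKM in WT and 0.0498, 0.0416 and 0.0170 RPKM in Rbpms KO. Kif27, a ciliary relative of Kif7, measured 0.373, 0.466 and 0.344 RPKM in WT and 0.176, 0.191 and 0.0957 RPKM in Rbpms KO. Kif9, a motor of motile cilia and sperm tails, measured 0.367, 0.339 and 0.6 RPKM in WT and 0.274, 0.121 and 0.102 RPKM in Rbpms KO. All WT libraries lay above all Rbpms KO libraries for these 3 genes. With no filter on low levels limma called Kif19a (log2 change -0.65, adjusted p = 0.00446) and Kif27 (-0.45, adjusted p = 0.0382) but not Kif9 (-0.49, adjusted p = 0.0841), where 4.64% of 14004 genes were called lower. The added 0.5 RPKM shrinks such changes. The authors' deposited table gave log2 changes of -3.25 for Kif19a, -1.33 for Kif27 and -1.37 for Kif9, with FDR of 2.11e-12, 0.00134 and 0.0137. Kif6, Kifc2 and Kif21b overlapped between groups and were not called with no filter (limma adjusted p = 0.451, 0.854 and 0.755).

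Markers of cells with motile cilia were lower in the same libraries. Foxj1, the master regulator of motile cilia, measured 3.32, 3.02 and 3.69 RPKM in WT and 0.154, 0.0541 and 0.0159 RPKM in Rbpms KO. Of the 12 listed markers 8 were tested, and 7 fell and 0 rose, where 3.99% of all tested genes fell and 2.38% rose. However, 4 of the 8 markers passed the filter through WT libraries alone, so this count favours falls. Summed over the 11 listed genes in the table, with no filter, they reached 25.7 to 29.9 RPKM in WT and 4.15 to 7.46 RPKM in Rbpms KO, and 0 of them stood at 0 in every library. The 6 airway markers summed to 646 to 901 RPKM in WT and 0.493 to 19.3 RPKM in Rbpms KO. All 6 fell, beside the same 3.99% of all tested genes, and 2 of them passed the filter through WT alone. Airway cells are not cells of the ventricle that the labels name. The part of airway or ciliated cells in the levels of Kif19a, Kif27 and Kif9 was not tested.

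The neuronal heavy chains were low and lay below WT in every Rbpms KO library. Kif5a measured 0.496, 0.665 and 0.734 RPKM in WT and 0.290, 0.217 and 0.146 RPKM in Rbpms KO, and it was called with no filter (log2 change -0.66, limma adjusted p = 0.0190). Kif5c measured 0.706, 0.827 and 0.801 RPKM in WT and 0.425, 0.606 and 0.370 RPKM in Rbpms KO, and it did not pass (log2 change -0.41, SE 0.13, limma adjusted p = 0.108). In the authors' deposited table Kif5a and Kif5c had log2 changes of -1.51 and -0.70, with FDR of 1.24e-05 and 0.0344. Kif1a, another motor best known from neurons, did not share this pattern. Its levels were 2.69, 2.87 and 2.38 RPKM in WT and 3.12, 2.74 and 3.54 RPKM in Rbpms KO (log2 change 0.20, limma adjusted p = 0.342).

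Of 4 tested neuron markers 3 had an unadjusted p below 0.05 and 3 had groups apart, beside 23.5% and 29.8% of all tested genes. Their median log2 change was -0.49, and 2 of the 4 passed the filter through WT alone. The 1 of the 4 that fell, beside 3.99% of all tested genes, was Prph, an intermediate filament of peripheral neurons. Prph went from 1.23, 1.10 and 1.49 RPKM in WT to 0.233, 0.373 and 0.0971 RPKM in Rbpms KO (limma adjusted p = 0.00501). Tubb3, the neuronal beta tubulin, also fell (log2 change -1.10, limma adjusted p = 0.0193, up to 0.0993 without 1 library). It was the 1 call among 21 tested tubulins and microtubule-associated genes, where 3.99% of all tested genes fell. The 5 neuron markers in the table summed to 18.9 to 22.3 RPKM in WT and 17.2 to 22.2 RPKM in Rbpms KO, most of it Uchl1, which differed little (log2 change 0.09). The 2 Schwann cell markers in the table were not called, with 1 at an unadjusted p below 0.05. The part of nerve tissue in the Kif5a and Kif5c levels was not tested.

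**Figure D4:**
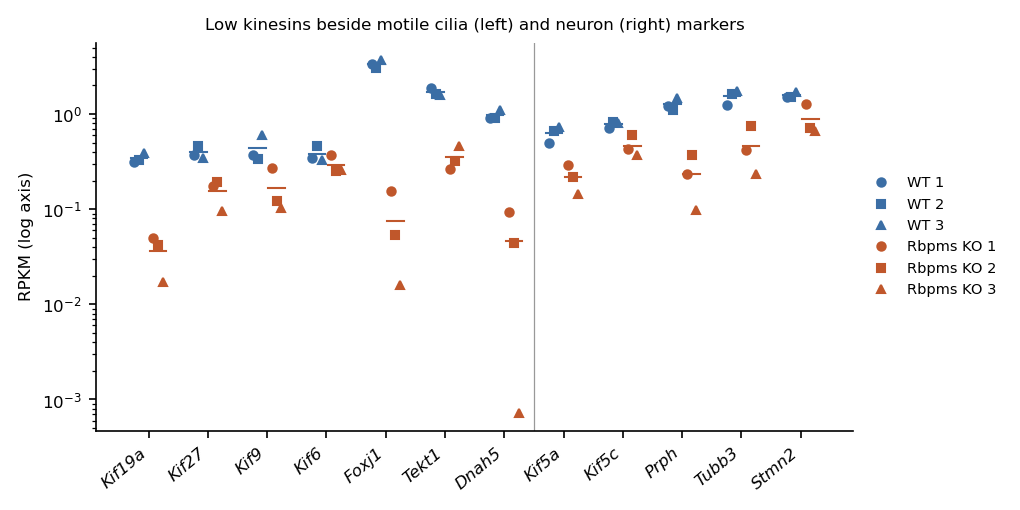
Level in RPKM on a log axis of 4 kinesins of cilia beside 3 markers of motile cilia (left of the grey line) and of Kif5a and Kif5c beside 3 markers or tubulins of neurons (right), in each library, with short lines at the group means. WT libraries lie above all Rbpms KO libraries for every gene shown except Kif6. The genes shown are a selection, and Kif1a and the neuron marker Uchl1, which were not lower in Rbpms KO, are left out.

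Kinesin adaptors and the parts of the opposing motor were counted in the same way. Of 14 tested cargo adaptors 2 fell and 0 rose, where 3.99% of all tested genes fell and 2.38% rose. In this list 7 had an unadjusted p below 0.05 and 9 had groups that did not overlap, beside 23.5% and 29.8% of all tested genes, and the median log2 change was -0.22. Klc2, a light chain that links conventional kinesin to cargo, measured 5.80, 6.42 and 5.96 RPKM in WT and 3.68, 4.60 and 4.65 RPKM in Rbpms KO (log2 change -0.45, limma adjusted p = 0.0482). Fez2, an adaptor related to the kinesin adaptor Fez1, measured 27.9, 27.8 and 29.8 RPKM in WT and 17.97, 20.9 and 24.0 RPKM in Rbpms KO (log2 change -0.45, limma adjusted p = 0.0480). The groups of neither gene overlapped. The Klc2 call was lost without any 1 of the 6 libraries, with adjusted p up to 0.217, and that of Fez2 without 5 of them, with adjusted p up to 0.166.

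In the dynein and dynactin list, whose products move cargo the opposite way, 3 of 23 tested genes rose and 1 fell, beside 2.38% and 3.99% of all tested genes, and the median log2 change was 0.05. Dync1li1, a light intermediate chain of cytoplasmic dynein, measured 27.3, 27.5 and 28.6 RPKM in WT and 45.1, 40.8 and 47.9 RPKM in Rbpms KO. Its groups lay far apart (log2 change 0.67, limma adjusted p = 0.00323), and the call held without any 1 library, with adjusted p up to 0.0266. Dync1h1, the dynein heavy chain, rose by 0.31 on the log2 scale (limma adjusted p = 0.0410), and this call was lost without any 1 of the 6 libraries, with adjusted p up to 0.185. Dynll1, a light chain shared by dynein and other proteins, fell by 0.48 (limma adjusted p = 0.0130, up to 0.0704 without 1 library). Dctn6, a dynactin subunit, rose by 1.07 (limma adjusted p = 0.0101, up to 0.0593 without 1 library). Dctn6 lies on chromosome 8 at a distance of 160.6 kb from Rbpms, so a change tied to the targeted locus and one tied to the pathway cannot be told apart.

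Marker lists of other cells were counted against the same background of 2.38% higher and 3.99% lower. Endothelial markers had 3 rises in 6, fibroblast markers 2 rises in 6 and cardiomyocyte markers 1 fall in 6, that of Myh6. Contractile smooth muscle markers had 4 falls in 5 with a median log2 change of -2.17. Limma called 0 of 4 macrophage and 0 of 6 erythroid markers, each with 0 at an unadjusted p below 0.05.

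Exon use was read from the authors' deposited table of skipped exons, which holds inclusion levels for 2 sets of 3 libraries. Its header does not say which set is which genotype, so the sets are called first and second, and columns are not matched to libraries. An inclusion level is the share of transcripts that keep the exon, estimated from junction reads. Kinesin genes held 104 events in 25 genes, and 73 of these in 17 genes had at least 10 junction reads in every library. An exon was called at an FDR below 0.05 with a difference of at least 0.05 between the sets. Of the 73 kinesin events in the authors' deposited table, 0 met this, against 1.16% of all 19448 events with as many reads. At an unadjusted p below 0.05 there were 6 of 73 kinesin events, against 5.17% of all. The sets did not overlap in 6 of the 73 kinesin events, and this share was not counted over all events. Most of the 73 events showed mainly 1 form, since 47 had a mean inclusion above 0.9 and 11 had one below 0.1. The 15 that lay between are called variable here, and events outside these limits can still show both forms.

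The variable exons sat in 8 genes, and 3 short ones that keep the reading frame are shown because they had the lowest p-values among those of 60 bases or fewer. Sequences are from GENCODE transcripts on GRCm38, 5′ to 3′ in the sense of the mRNA. Capitals mark CAC, the trinucleotide bound by the human Rbpms protein, searched in the sense of the mRNA only. Binding to these exons was not tested. CAC occurs in 38.4% of the 297 exons of 39 to 42 bases in the same deposited table.
Kif23 exon (chr9:61933229-61933270, minus strand): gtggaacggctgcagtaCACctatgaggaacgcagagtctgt
Kif13a exon (chr13:46780626-46780664, minus strand): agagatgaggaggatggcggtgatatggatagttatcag
Kif1b exon (chr4:149261160-149261201, minus strand): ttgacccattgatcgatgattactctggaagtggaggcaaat

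Kif23 had the widest difference among the events with an unadjusted p below 0.05 and at least 10 junction reads in every library. Its 42-base exon was included at 0.377, 0.382 and 0.427 in the first set and 0.572, 0.484 and 0.684 in the second, in the authors' deposited table. The sets did not overlap, on 40 to 69 junction reads per library, and the FDR of 0.278 did not pass. A second Kif23 exon of 312 bases lies near the 3′ end of the gene, and in human its inclusion makes the longer form known as CHO1. That exon was included at 0.388, 0.520 and 0.577 in the first set and 0.581, 0.6 and 0.4 in the second, with overlapping sets and an FDR of 1 in the authors' deposited table.

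The 39-base exon of Kif13a was included at 0.973, 0.944 and 0.897 in the first set and 0.884, 0.830 and 0.864 in the second (FDR 0.314 in the authors' deposited table), with the sets just apart. The 42-base exon of Kif1b was included at 0.785, 0.902 and 0.869 and at 0.778, 0.734 and 0.802, with overlapping sets and an FDR of 0.764 in that deposited table. The same Kif1b exon, read with another flanking exon, differed by -0.019. Kif2a had the lowest p, for a 114-base exon that few transcripts kept. Its inclusion was 0.042, 0.032 and 0.012 in the first set and 0.087, 0.086 and 0.107 in the second, with an FDR of 0.115 in the authors' deposited table. Kif16b kept a 153-base exon at 0.882, 0.848 and 0.818 and at 0.935, 0.949 and 0.9, with sets apart and an FDR of 0.798 in that deposited table. The remaining variable exons of Kif1b, Kif1c, Kif3a, Kif16b, Kif20b and Kifc3 had overlapping sets and an FDR of 1.

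**Figure D5:**
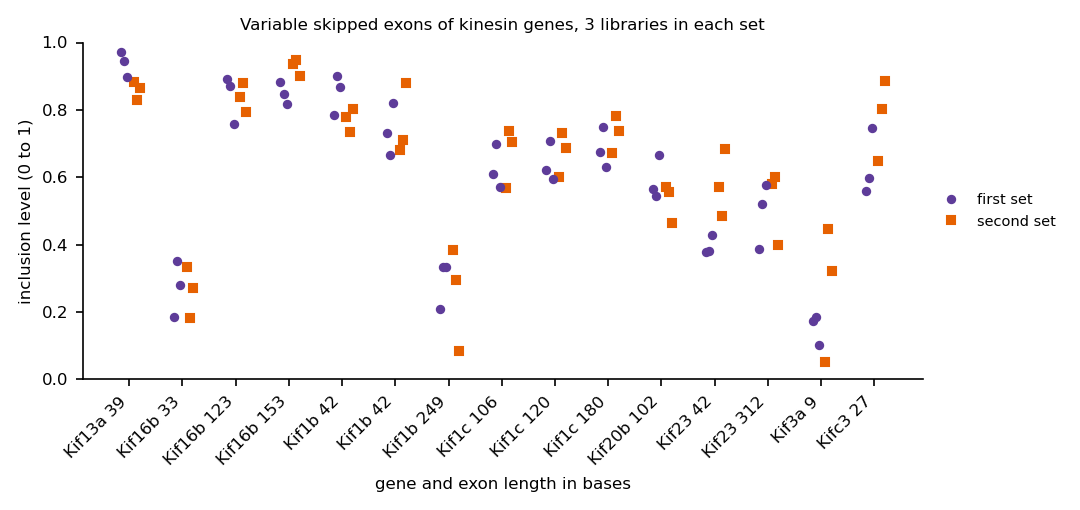
Inclusion level from 0 to 1 of the 15 kinesin events with a mean inclusion between 0.1 and 0.9, with the 3 libraries of the first set as circles and of the second set as squares, labelled by gene and exon length. The sets are apart for the Kif23 exon of 42 bases, the Kif13a exon of 39 bases and the Kif16b exon of 153 bases, and overlap for the others.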

How the data were processed

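Expression was deposited by the authors as RPKM, and for each library the products of RPKM and gene length add up to 1000000. Of the 1000 lowest positive values of a library 984 to 993 were distinct, so reads per library could not be recovered and the depth is unknown. The submitters' processing notes list edgeR 3.30.1, featureCounts 1.6.0, FastQC 0.11.4 and the builds mm10 and GRCm38. The aligner is not given in the sources used here. The authors' deposited comparison gives log2 fold changes, an FDR, a p-value and a test score (likelihood ratio) per gene, per the file headers. The deposited skipped exon table gives an inclusion difference score and a p-value per exon, per the file headers. Lost commas in its read counts were restored by matching the printed inclusion levels within 0.00051, and of 56560 pairs of cells 5997 allowed several readings, of which the most even was kept.

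Log2(RPKM + 0.5) was compared between 3 WT and 3 Rbpms KO libraries by the trend method of limma 3.58.1 (R 4.3.3), and p-values were adjusted by Benjamini and Hochberg over 12911 genes. The fit was tested on simulated data. The members and lists were chosen with earlier results of these data known. All kinesins are accounted for; values per library are given for called kinesins, all mitotic kinesins, and transport kinesins that were called, of at least 20 RPKM or with groups apart. Of other lists called genes are named, at most 6 per list, and smooth muscle, endothelial, fibroblast, airway and ciliary lists are given by count. Kif1a, Kif2a, Kif9, Kif19a and Kif27 fall outside this rule for values per library and were chosen after their values were seen. Gene positions are from GENCODE mouse release 21.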

Additional observations from a re-analysis of the deposited data

How the results depend on the processing

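The depth is unknown, so no counting error could be given, and changes of genes near or below 0.5 RPKM are shrunk by the added constant. The count of kinesins called lower was 1 and became 4 with no filter (Kif19a, Kif27 and Kif5a were added). It became 0 after median ratio scaling, 0 in limma without a trend and 0 with WT replicates 1 and 2 as 1 sample, and it ran from 0 to 2 without 1 library, with Kif16b added without WT replicate 3. The cause was not tested. Kinesins called higher stayed at 0 and kinesin skipped exons called at 0 under every alternative run. All genes called fell from 822 to 213 with WT replicates 1 and 2 as 1 sample and ran from 192 to 868 without 1 library. The mitotic median log2 change ran from -0.24 to -0.12 without 1 library and was -0.14 after median ratio scaling, which moved the median of all tested genes from -0.03 to 0.0034. The transport median was -0.028 after that scaling and ran from -0.091 to -0.035 without 1 library. With the replicate number as a block, 545 genes and 0 kinesins were called. Deviations of same-numbered libraries correlated at 0.21, -0.27 and 0.12, and 2 of 6 libraries correlated best with their own number. With 3 libraries a group these values cannot settle whether the numbers pair the samples, and the main fit did not pair them. Signs turned only in genes that were not called. Median ratio scaling gave log2 changes of 0.037 for Kif5b and 0.0061 for Kif26a, and WT replicates 1 and 2 as 1 sample gave -0.015 for Kif20b. Without 1 library the log2 change ran from -0.054 to 0.056 for Kif5b, -0.13 to 0.028 for Kif1c, -0.030 to 0.040 for Kif20b, -0.22 to 0.12 for Kif18b, -0.11 to 0.22 for Kif26b, -0.13 to 0.091 for Kif26a and -0.012 to 0.073 for Kif3c.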
